A study of Mus musculus with 14 samples.

Results

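RNA levels were examined in mouse liver for 10 genes that encode the H3K4 methyltransferases of the KMT2 and SETD1 families and the partners that belong to only some of their complexes. The 6 catalytic subunits are Kmt2a, Kmt2b, Kmt2c, Kmt2d, Setd1a and Setd1b, and the 4 partners are Men1, Kdm6a, Cxxc1 and Wdr82. They were chosen by name, as members of these complexes, out of 24411 genes named in the count files. All 10 passed the filter on low counts, among 9644 genes tested. The study injected male littermate mice aged 5 to 7 months with tunicamycin, which blocks protein N-glycosylation and so causes endoplasmic reticulum stress, or with vehicle. Every mouse carried Rbbp5 with both alleles floxed. WT mice were Alb-CRE (-/-) and kept the gene, and RBBP5 LKO mice, spelled RRBP5 LKO in the sample titles, were Alb-CRE (+/-). The tunicamycin dose was 0.05 mg/kg by intraperitoneal injection in 500 µl of PBS with 3% DMSO, the vehicle was the same solution without tunicamycin, and livers were taken 8 hours after a morning injection. After near-identical libraries were summed, vehicle and tunicamycin were represented by 3 samples each in WT mice, and by 3 and 4 samples in LKO mice. The albumin-driven Cre acts in hepatocytes, so liver cells of LKO mice in which it was never active keep Rbbp5.

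RBBP5 belongs to WRAD, the core of WDR5, RBBP5, ASH2L and DPY30 that all KMT2 and SETD1 complexes share and that most of these enzymes need for full activity. KMT2A and KMT2B bind menin and act at selected promoters, KMT2C and KMT2D work with the H3K27 demethylase KDM6A at enhancers, and SETD1A and SETD1B, with CXXC1 and WDR82, place most promoter H3K4 trimethylation. In liver, these enzymes mark active promoters and enhancers of hepatocyte genes, and the comparison of their RNA asks whether enzyme genes differ when the shared core subunit is deleted or when the liver is stressed.

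Positions are those of the RefSeq annotation of GRCm38.p6. Kmt2c spans chr5:25271795-25498855 on the minus strand, Kmt2d chr15:98831669-98874077 on the minus strand, and Men1 chr19:6334979-6340894 on the plus strand. Setd1b spans chr5:123142040-123168630, Kdm6a chrX:18160862-18279936 and Wdr82 chr9:106170925-106191706, all on the plus strand. Kmt2a lies at chr9:44803355-44881352 and Kmt2b at chr7:30568855-30589056, both on the minus strand, and Setd1a lies at chr7:127777389-127800122 on the plus strand. Setd1a shares exon sequence on its own strand with Gm49388, so its reads could be divided between the genes. RefSeq promoter windows of 300 bases, from 250 before to 50 after the start, were matched for 7 of the 10 genes (Kmt2a, Kmt2c, Kmt2d, Setd1a, Men1, Kdm6a and Wdr82). The windows of Kmt2d, at chr15:98871156-98871455, and of Kdm6a, at chrX:18162325-18162624, lie wholly inside the spans given above. Their CG counts and motif results are those of internal starts.

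Promoter sequences of Kmt2c and Men1 are shown because their windows hold the most and the fewest CG pairs among the matched genes, and because CXXC1, KMT2A and KMT2B carry CXXC domains that bind unmethylated CG pairs. Each is the part of the window that lies before the annotated span of the gene, on the gene's own strand, in lower case with every CG in capitals. They lie at chr5:25498856-25499033, minus strand, 178 bases, for Kmt2c, and at chr19:6334729-6334978, plus strand, 250 bases, for Men1. The Men1 stretch belongs to the first of 3 windows of this gene.
Kmt2c: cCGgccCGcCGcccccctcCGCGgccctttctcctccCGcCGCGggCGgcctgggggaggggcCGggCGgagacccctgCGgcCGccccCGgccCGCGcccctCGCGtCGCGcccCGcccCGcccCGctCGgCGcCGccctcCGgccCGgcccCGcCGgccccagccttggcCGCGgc
Men1: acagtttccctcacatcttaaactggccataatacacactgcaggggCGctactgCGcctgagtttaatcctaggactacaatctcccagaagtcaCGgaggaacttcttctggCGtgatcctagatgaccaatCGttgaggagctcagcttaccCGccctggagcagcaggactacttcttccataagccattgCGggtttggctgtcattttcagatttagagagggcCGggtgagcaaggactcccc
The stretch of Kmt2c held 32 CG pairs and the longer one of Men1 8. Over the whole window Kmt2c held 56 CG pairs, a number reached by 0.233% of 27025 genes, whereas Kmt2a held 36, Setd1a 35, Wdr82 28, Kmt2d 27 and Kdm6a 21. The Men1 window whose first part is shown held 11, which 43.8% of genes reached, and the richest of its 3 windows held 16, which 35.5% reached. The median was 28 for the 7 genes and 8 for all genes. Of the motifs known from the response to endoplasmic reticulum stress, 3 short ones were searched on both strands, and others, the ERSE among them, were not searched. The UPRE core TGACGTG and the C/EBP-ATF site TGATGCAA were in 0 of the 7 windows, and in those of 2.22% and 1.03% of all genes. The CRE motif TGACGTCA, which begins like the UPRE core, was in the window of Wdr82 alone, and in 2.03% of all genes. A motif match is a description of these letters, and no match covers only these windows.

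The libraries held 6507018 to 13519421 reads on the sense strand of genes, of which 72.5 to 75.5% came from the ribosomal RNA gene Rn45s, and 1704479 to 3551398 without it. LKO vehicle libraries 3 and 4 differed slightly more than sampling noise, which alone gives a chi-square of 1 per degree of freedom, at 1.12 against 3.05 to 25.5 for the other 17 pairs within groups, and were counted as 1 sample. WT tunicamycin 3 stood apart from the rest of its group, at 25.1 and 25.5. LKO vehicle 2, the deepest library, was at 12.6, 14.8 and 16.4 with the rest of its group. LKO vehicle 1 was at 6.57 and 6.89 with libraries 3 and 4. Rbbp5 was at 4.07, 6.41 and 5.10 CPM (reads scaled to library sizes adjusted by TMM, Rn45s included) in WT vehicle, 5.37, 5.03 and 5.71 in WT tunicamycin, 4.15, 1.90 and 2.79 in LKO vehicle, and 2.80, 3.12, 3.46 and 2.06 in LKO tunicamycin. It fell by 0.89 ± 0.18 (SE) on the log2 scale in LKO over both treatments (edgeR quasi-likelihood test, adjusted p = 0.0181), but the library labelled LKO vehicle 1 lay within the WT range. Without LKO vehicle 1 the difference was -1.01 (adjusted p = 0.00915), and without WT vehicle 2 it was -0.79 and did not pass (adjusted p = 0.0650). It also missed the threshold in limma on the FPKM values. Reads over the whole gene were counted, and the labels do not say which exons are deleted. All 10 hepatocyte markers were detected, with summed levels from 22939 to 36007 CPM. The labels do not say that each library is a separate mouse, so p-values measure the spread between these samples.

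The 10 genes had low values, which were not compared with those of other genes. Whether Rn45s entered the depth used for the deposited FPKM was not checked. Per transcript length, as FPKM (fragment counts relative to transcript length and to depth), the highest mean was that of Cxxc1, at 1.12 ± 0.191 (SD, n = 13), and the lowest that of Kmt2b, at 0.283 ± 0.0425. Between them came Wdr82 at 1.01 ± 0.123, Kmt2c at 0.858 ± 0.137, Kmt2d at 0.688 ± 0.0916, Setd1b at 0.626 ± 0.126, Kdm6a at 0.616 ± 0.131, Men1 at 0.549 ± 0.109, Setd1a at 0.410 ± 0.0698 and Kmt2a at 0.410 ± 0.0591 FPKM. Neighbours in this order overlapped in their ranges in every case. Kmt2c exceeded Kmt2d in all 13 samples and Kmt2a exceeded Kmt2b in all 13, whereas Setd1b exceeded Kdm6a in 8, Kdm6a exceeded Men1 in 7, and Setd1a exceeded Kmt2a in 5 of 13 samples. The genes of the SETD1 partners thus had higher mean FPKM than any of the 6 enzyme genes.

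**Figure D1:**
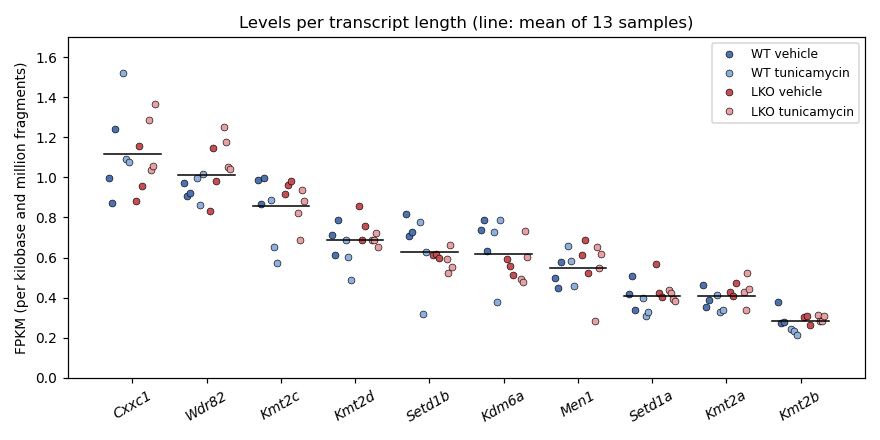
Levels per transcript length (FPKM, vertical axis) of the 10 genes in each of 13 samples, ordered by their mean, with points coloured by genotype and treatment and a line at the mean. Cxxc1 has the highest mean, 1.12 FPKM, and Kmt2b the lowest, 0.283 FPKM.

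The genes varied little between samples. Their coefficient of variation of CPM over the 13 samples was 9.20% for Kmt2d, 10.4% for Kmt2c and 11.2 to 13.2% for Wdr82, Kmt2b, Kmt2a, Setd1a and Cxxc1, and it was 18.4% for Setd1b and for Kdm6a and 19.8% for Men1. The median was 11.8%, and all 10 genes lay under the median over all genes tested, 20.5%, which was not matched on level. Counting error alone gives 19.7% for Men1, which had 13 to 54 reads per sample, and 14.1% for Kmt2b, at 32 to 89 reads. By contrast Setd1b (45 to 188 reads) and Kdm6a (45 to 122 reads) varied more than the 10.3% and 11.3% that counting gives. So did Kmt2c (199 to 684 reads), for which counting gives 5.71%. Kmt2d and Kmt2a, at 9.20% and 11.5%, also exceeded the 6.13% and 9.02% from counting. The remaining genes lay near counting error or under it.

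The genes of KMT2A and KMT2B, both promoter-directed enzymes, overlapped between genotypes in their levels. Kmt2a was at 17.0, 12.9 and 15.2 CPM in WT vehicle, at 15.0, 14.3 and 13.9 in WT tunicamycin, at 15.3, 13.9 and 17.0 in LKO vehicle, and at 14.8, 13.01, 19.2 and 16.0 in LKO tunicamycin. All groups overlapped, and the LKO tunicamycin group held both a low and the highest sample. The LKO to WT difference over both treatments was 0.08 ± 0.10 (SE) on the log2 scale, with a 95% interval from -0.13 to 0.30, and that of tunicamycin to vehicle over both genotypes was -0.01 ± 0.10, from -0.23 to 0.20.

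Kmt2b was at 7.66, 6.41 and 6.41 CPM in WT vehicle and at 6.05, 5.51 and 4.94 in WT tunicamycin. It was at 6.75, 6.28 and 5.28 CPM in LKO vehicle and at 6.66, 6.64, 6.01 and 5.86 in LKO tunicamycin. The WT groups did not overlap, with all tunicamycin samples lower, whereas the LKO groups did overlap. The WT difference between tunicamycin and vehicle, -0.31 ± 0.17 (SE, log2), did not pass the test (adjusted p = 0.397, edgeR), and neither did the difference between the responses of the genotypes, 0.37 ± 0.22 (adjusted p = 0.981). Menin, the product of the tumour suppressor gene Men1, tethers both enzymes to chromatin. Men1 ranged from 2.51 to 3.50 CPM in WT vehicle, from 3.24 to 3.89 in WT tunicamycin, from 2.97 to 4.03 in LKO vehicle and from 1.73 to 3.77 in LKO tunicamycin. Its groups overlapped in all comparisons, the lowest value being LKO tunicamycin 1, with 13 reads. Men1 had the widest interval of all: its difference between the genotypes' responses was -0.51 ± 0.35 (SE, log2), from -1.24 to 0.23.

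KMT2C and KMT2D, the enhancer-directed enzymes, had the highest levels per length among the catalytic subunits. Kmt2c was at 41.4, 39.0 and 45.0 CPM in WT vehicle, at 38.3, 32.3 and 31.3 in WT tunicamycin, at 38.6, 39.6 and 40.6 in LKO vehicle, and at 38.1, 32.0, 39.2 and 37.2 in LKO tunicamycin. All WT tunicamycin samples were below all WT vehicle samples, while in LKO the groups overlapped, with 1 tunicamycin sample, the third, above the lowest vehicle sample. The WT difference was -0.30 ± 0.12 (SE, log2), with a 95% interval from -0.55 to -0.05, and that in LKO was -0.11 ± 0.11, from -0.34 to 0.11. Over both genotypes Kmt2c was -0.21 ± 0.08 after tunicamycin, the smallest p of the 10 genes in that comparison (unadjusted p = 0.0200, adjusted p = 0.150, edgeR), and it did not pass. The difference between the 2 responses, 0.19 ± 0.16, did not pass either (adjusted p = 0.982). Over the alternatives, the adjusted p of Kmt2c ranged from 0.0553 to 0.291 over both genotypes and from 0.0801 to 0.470 in WT.

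Long transcripts as a class lay slightly lower in the WT comparison. Genes with a longest transcript of at least 8000 bases, among them Kmt2a to Kmt2d and Setd1b, had a median log2 difference of -0.08 in WT after tunicamycin, against 0.02 for the others, and of -0.04 against 0.01 over both genotypes. In LKO after tunicamycin the medians were 0.02 and 0.00, and for LKO against WT after tunicamycin they were 0.12 and -0.02. The part of transcript length in the values of these 5 genes was not tested. Kmt2d was at 33.2, 31.8 and 37.0 CPM in WT vehicle, at 32.2, 32.6 and 26.4 in WT tunicamycin, at 38.4, 31.0 and 33.4 in LKO vehicle, and at 33.4, 31.4, 31.6 and 29.7 in LKO tunicamycin. Its groups overlapped in all comparisons, and WT tunicamycin 3 was the lowest sample. The log2 difference over both genotypes was -0.14 ± 0.08 (SE), from -0.31 to 0.04, and LKO differed from WT by 0.03 ± 0.08, from -0.14 to 0.21.

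Kdm6a encodes UTX, an X-linked H3K27 demethylase that joins the KMT2C and KMT2D complexes. It was at 10.5, 10.8 and 10.6 CPM in WT vehicle, at 12.0, 7.30 and 12.7 in WT tunicamycin, at 10.1, 8.18 and 7.24 in LKO vehicle, and at 7.99, 8.33, 10.3 and 8.47 in LKO tunicamycin. With vehicle, all LKO samples were below all WT samples, whereas after tunicamycin the groups overlapped because WT tunicamycin 2 was below every LKO tunicamycin sample. The LKO to WT difference was -0.35 ± 0.18 (SE, log2) with vehicle, -0.28 ± 0.18 after tunicamycin and -0.31 ± 0.13 over both, with a 95% interval from -0.58 to -0.05. None of these passed after adjustment (adjusted p = 0.631, 0.477 and 0.193, edgeR). Without WT tunicamycin 2, Kdm6a passed over both treatments, at -0.41 ± 0.11 (adjusted p = 0.0404), in a fit that called 4.15% of all genes in this comparison, against 2.21% with all samples. Over the other alternatives and this one, the adjusted p ran from 0.0404 to 0.592, and the sign was negative in 23 of 23. Uty, its Y-linked relative, was between 9.62 and 14.6 CPM over the 13 samples.

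SETD1A and SETD1B are close relatives that make separate complexes with the same partners. Setd1a was at 6.83, 6.92 and 5.68 CPM in WT vehicle and at 5.64, 5.19 and 6.33 in WT tunicamycin. It was at 7.35, 5.77 and 5.70 CPM in LKO vehicle and at 5.86, 5.60, 5.40 and 4.89 in LKO tunicamycin. All compared groups overlapped, the highest sample being LKO vehicle 1 and the lowest LKO tunicamycin 4. Setd1a differed by -0.08 ± 0.11 (SE, log2) between LKO and WT over both treatments, from -0.31 to 0.16, and by -0.19 ± 0.11 between tunicamycin and vehicle, from -0.42 to 0.05.

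Setd1b was at 15.1, 13.97 and 13.8 CPM in WT vehicle, at 15.0, 7.30 and 12.97 in WT tunicamycin, at 10.9, 10.7 and 11.2 in LKO vehicle, and at 11.3, 10.3, 12.5 and 10.5 in LKO tunicamycin. With vehicle, every LKO sample was below every WT sample, and both groups were tight. After tunicamycin 2 of the 3 WT samples were above all LKO samples and WT tunicamycin 2 was below them all. The LKO to WT difference was -0.39 ± 0.18 (SE, log2) with vehicle, with a 95% interval from -0.77 to -0.02, the smallest p of the 10 genes there (unadjusted p = 0.0412, adjusted p = 0.583, edgeR). It was -0.08 ± 0.18 after tunicamycin and -0.24 ± 0.12 over both treatments (adjusted p = 0.329), and the difference between the genotypes' responses was 0.31 ± 0.25 (adjusted p = 0.982). Without WT tunicamycin 2, Setd1b over both treatments was -0.36 ± 0.09 and passed (adjusted p = 0.0346), against a range from 0.0346 to 0.798 over its alternatives. Setd1b and Kdm6a were thus both called by leaving out the same sample, the lowest WT sample for each. That fit called 413 of 9951 genes for genotype over both treatments, or 4.15%, where 213 of 9644, or 2.21%, were called with all samples. WT tunicamycin 2 also had the lowest TMM factor of the 13 samples, 0.840. A factor under 1 makes the CPM of a sample higher than total count scaling would. The part of that scaling in the result was not tested.

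CXXC1, the CG-binding subunit that brings SETD1 complexes to CG-rich promoters, was at 5.75, 6.92 and 8.02 CPM in WT vehicle, at 9.63, 7.62 and 7.41 in WT tunicamycin, at 6.63, 7.30 and 6.23 in LKO vehicle, and at 7.19, 6.64, 6.73 and 7.06 in LKO tunicamycin. After tunicamycin all 4 LKO samples were below all 3 WT samples, and with vehicle the genotypes overlapped. The difference after tunicamycin was -0.26 ± 0.15 (SE, log2), from -0.57 to 0.06 (adjusted p = 0.426, edgeR), the smallest p of the 10 genes in that comparison. Wdr82 encodes the adaptor that links SETD1 complexes to RNA polymerase II and also serves a phosphatase and termination complex. It ranged from 8.84 to 9.62 CPM in WT vehicle, from 8.94 to 10.7 in WT tunicamycin, from 7.46 to 10.9 in LKO vehicle and from 9.27 to 11.5 in LKO tunicamycin. All groups overlapped, and its log2 differences were 0.02 ± 0.10 (SE) between genotypes, from -0.20 to 0.24, and 0.13 ± 0.10 between treatments, from -0.10 to 0.35.

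**Figure D2:**
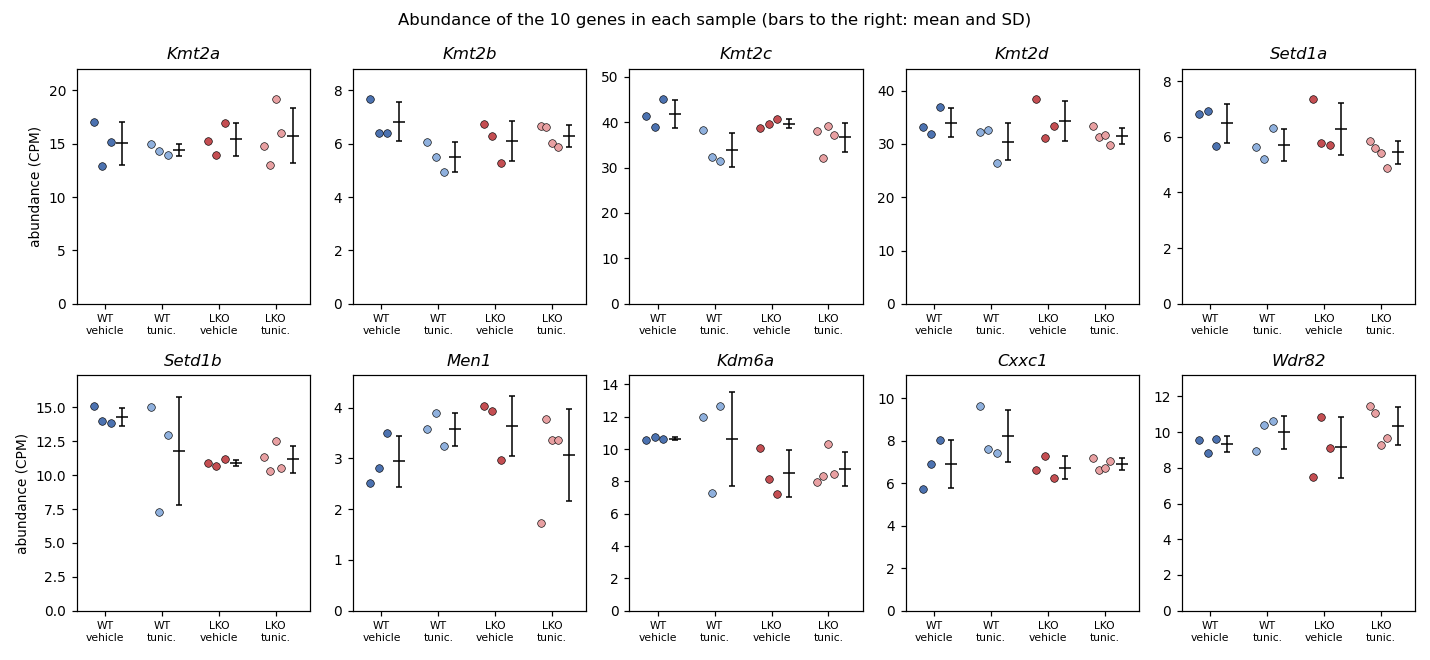
Abundance (CPM, vertical axis, 1 panel per gene) of the 10 genes in each sample of the 4 groups, with the mean and SD to the right of the points. Setd1b in LKO vehicle lies at 10.7 to 11.2 CPM, below 13.8 to 15.1 in WT vehicle, and WT tunicamycin 2 stands out low for Setd1b and Kdm6a at 7.30 CPM.

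Across the comparisons, none of the 10 genes passed an adjusted p of 0.05. For LKO against WT over both treatments, 0 of 10 were called, where 2.21% of all genes tested were. For tunicamycin against vehicle over both genotypes it was 0 of 10, against 4.32%. The single comparisons also gave 0 of 10 each, where 0.363% of genes were called for tunicamycin in WT and 0.0311% for tunicamycin in LKO. Between genotypes 0.0415% were called with vehicle and 0.861% after tunicamycin, and for the difference between the responses the share was 0%. At an unadjusted p under 0.05, edgeR gave 1 gene of the 10 in tunicamycin against vehicle in WT (Kmt2c), 1 in LKO against WT with vehicle (Setd1b), and 1 in each of the averaged comparisons (Kdm6a and Kmt2c), and 0 in the other 3. Of all genes tested, 14.8% reached that p for tunicamycin in WT and 8.15% for genotype with vehicle. The shares were 18.0% for genotype over both treatments and 20.2% for tunicamycin over both genotypes. They were 12.2% for tunicamycin in LKO, 15.8% for genotype after tunicamycin and 4.91% for the interaction. A count of 1 among 10 was thus near or under the background. DESeq2 called 0 of 10 in 5 comparisons and 0 of the 7 genes it gave an adjusted p for tunicamycin in WT, whereas for tunicamycin in LKO it gave none of the 10 an adjusted p. At an unadjusted p under 0.05, DESeq2 gave 1 gene in tunicamycin against vehicle in WT and 1 in each of the averaged comparisons, and 0 in the other 4. The share of all genes at that p in DESeq2 is not given here, so these counts have no background beside them. Limma on the FPKM values called 0 of 10 without a filter, and with a minimum of 1 FPKM it called 0 of the 2 genes left, Cxxc1 and Wdr82. With so few calls among all genes, a count of 0 among 10 is near the background.

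The intervals bound the size of the differences. For LKO against WT over both treatments the 10 log2 differences ran from -0.31 to 0.08, and their intervals, from -0.58 to 0.41, correspond to folds from 0.670 to 1.33. For tunicamycin over both genotypes they ran from -0.21 to 0.15, with intervals corresponding to folds from 0.745 to 1.32. All 10 intervals lay within a 2-fold change in each comparison other than the difference between the responses, where 9 did and Men1 did not. The median log2 difference of the 10 genes was 0.01 for genotype and -0.07 for tunicamycin, against 0.00 and 0.01 over all genes. In bulk liver, fewer cells of a type and less RNA per cell cannot be told apart.

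**Figure D3:**
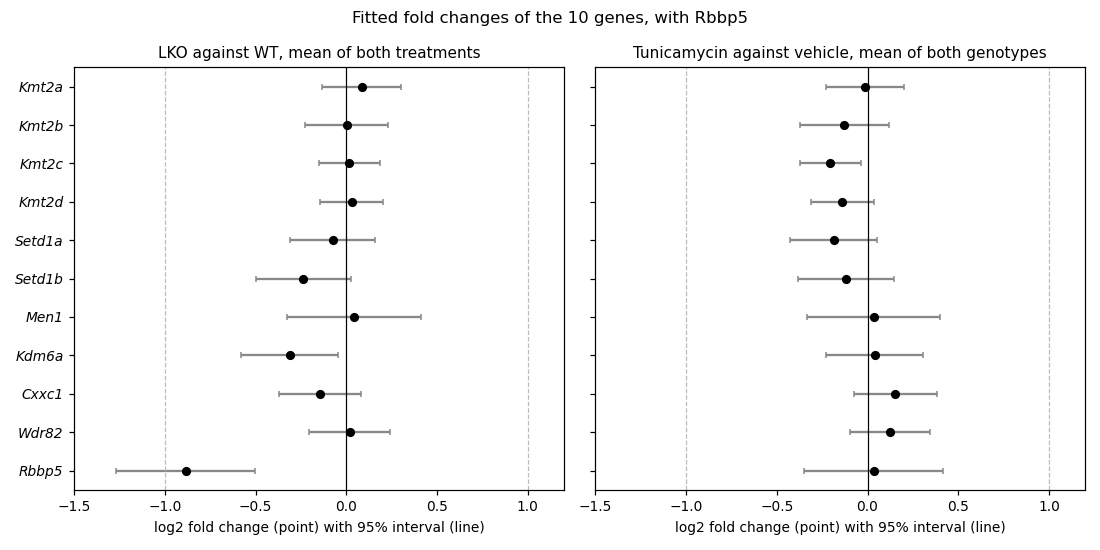
Fitted log2 fold changes (horizontal axis, points) with 95% intervals (lines) for the 10 genes and Rbbp5, for LKO against WT over both treatments and tunicamycin against vehicle over both genotypes, with dashed lines at a 2-fold change. All 10 genes stay within the dashed lines, and Rbbp5 lies at -0.89 in the genotype panel.

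Group ranges that do not overlap were also counted. In WT after tunicamycin, 2 of 10 (Kmt2b and Kmt2c) were lower without overlap and 0 higher, where 8.65% of genes tested were lower and 8.63% higher, 17.3% in all. With vehicle, 2 of 10 (Setd1b and Kdm6a) were lower in LKO without overlap and 0 higher, where 7.58% were lower and 7.52% higher, 15.1% in all. After tunicamycin, 1 of 10 (Cxxc1) was lower in LKO and 0 higher, where 6.58% were lower and 6.34% higher, 12.9% in all. Those shares of all genes correspond to between 1 and 2 of 10 genes in either direction. In LKO after tunicamycin it was 0 of 10, where 6.55% were lower and 5.03% higher, 11.6% in all. With treatments pooled, 0 of 10 lay apart between genotypes, where 0.415% were lower and 0.674% higher, 1.09% in all. With genotypes pooled, 0 of 10 lay apart between treatments, where 0.456% were lower and 0.373% higher, 0.83% in all.

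The balance within each pair of related enzymes did not differ by the test between genotypes or treatments, each averaged over the other factor. Kmt2a took 70.9 ± 3.20% (SD, n = 13) of the reads of Kmt2a and Kmt2b together, with a range from 66.2 to 76.3%. Kmt2c took 53.8 ± 2.22% of the reads of Kmt2c and Kmt2d, from 49.8 to 56.1%, and Setd1a took 33.5 ± 4.03% of those of Setd1a and Setd1b, from 27.3 to 41.6%. Per length, in FPKM, the shares were 59.1%, 55.4% and 39.9%. The highest Setd1a share, 41.6%, was that of WT tunicamycin 2, where Setd1b was lowest. LKO minus WT differed by 0.776 percentage points for the Kmt2a share, by -0.275 for Kmt2c and by 2.08 for Setd1a, with p = 0.691, 0.871 and 0.399 in a two-sided exact permutation test within treatments. Tunicamycin minus vehicle differed by 1.63, -1.20 and -0.416 percentage points, with exact permutation p = 0.383, 0.346 and 0.886. Adjusted over the 6 tests, the p-values were 0.797 or 0.886, and the smallest p the design allows is 0.00143. Single strata were not tested. The ranges given next were picked because they did not overlap, and they have no background share beside them. In WT the Kmt2a share was 66.9 to 70.3% with vehicle and 71.2 to 73.8% after tunicamycin. The Kmt2c share in WT was 54.9 to 55.5% with vehicle and 49.8 to 54.3% after tunicamycin. With vehicle the Setd1a share was 29.1 to 33.1% in WT and 33.8 to 40.3% in LKO. The shares overlapped between groups in the other single comparisons, among them tunicamycin in LKO for each pair.

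**Figure D4:**
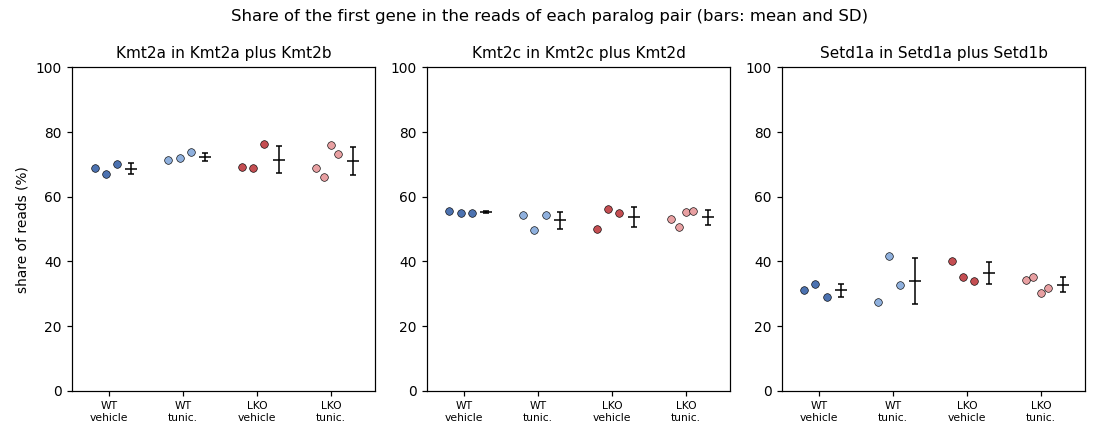
Share of the first gene in the reads of each enzyme pair (percent, vertical axis) in each sample of the 4 groups, with the mean and SD to the right of the points. The mean shares over 13 samples are 70.9% for Kmt2a, 53.8% for Kmt2c and 33.5% for Setd1a.

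Other genes of H3K4 methylation were compared by lists. Over the comparisons, from 0% to 4.32% of all genes tested were called, so 0 called in lists this short is near the background. Of the WRAD core, 4 of 4 genes were tested and only Rbbp5 was called, in the genotype comparison. Dpy30, whose product binds ASH2L, was -0.33 ± 0.15 (SE, log2) after tunicamycin over both genotypes and did not pass (adjusted p = 0.209, edgeR). Of 12 other subunits and partners 10 were tested, and 0 were called in any comparison. The largest difference after tunicamycin among them was that of Kdm6b, an H3K27 demethylase gene related to Kdm6a, at -0.49 ± 0.15 (adjusted p = 0.0728). Among 6 genes of the other complexes of WDR82, 6 were tested and 0 called. Ppp1r10, a phosphatase targeting subunit, had the largest difference among them for tunicamycin over both genotypes, -0.34 ± 0.10 (adjusted p = 0.0656). Neither passed the threshold.

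The erasers and neighbouring enzymes were counted in the same way. The gene named for each list had its largest difference for tunicamycin over both genotypes, with p-values from edgeR. Of 8 genes of other H3K4 methyltransferases and relatives 6 were tested and 0 called, with Smyd2 at -0.27 ± 0.23 (adjusted p = 0.545). Of 8 H3K4 demethylase genes 7 were tested and 0 called, with Kdm5c at 0.23 ± 0.11 (adjusted p = 0.266). Of 15 other histone lysine methyltransferases 9 were tested and 0 called, with Suv39h1, which methylates H3K9, at -0.67 ± 0.26 (adjusted p = 0.154). Of 12 enhancer coactivators all 12 were tested, and 1 was called: Smarca2, an ATPase of SWI/SNF chromatin remodelling complexes, fell.

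Smarca2 was at 69.3, 73.9 and 74.2 CPM in WT vehicle, at 40.3, 37.3 and 57.1 in WT tunicamycin, at 65.6, 51.2 and 78.3 in LKO vehicle, and at 44.9, 41.3, 42.1 and 45.9 in LKO tunicamycin. Every tunicamycin sample was below every vehicle sample of its genotype. It fell by 0.64 ± 0.11 (SE) on the log2 scale over both genotypes (edgeR, adjusted p = 0.0123), in a comparison that called 4.32% of all genes. It passed in 22 of 24 alternatives, all with the same sign, but not in limma on FPKM with either pseudocount and no filter.

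Marker genes of other liver cells moved with genotype in some lists. In LKO over both treatments, 4 of 9 stellate cell and fibroblast markers tested were called, where 2.21% of all genes were. Col1a1, Col1a2, Col3a1 and Pdgfrb rose by 1.88, 1.67, 1.37 and 1.10 on the log2 scale (edgeR, adjusted p = 0.0101, 0.00252, 0.0173 and 0.0162). Their list summed to 81.7 to 129 CPM in WT vehicle and 108 to 151 in WT tunicamycin, and to 137 to 186 in LKO vehicle and 126 to 199 in LKO tunicamycin. In the same comparison Spp1, 1 of 3 bile duct markers tested, rose by 1.79 (edgeR, adjusted p = 0.0270). Hnf4a, 1 of 10 hepatocyte markers, fell by 0.34 there (edgeR, adjusted p = 0.0475). In LKO against WT after tunicamycin alone, where 0.861% of all genes were called, Hnf4a fell by 0.54 (edgeR, adjusted p = 0.0405). Fgb, another hepatocyte marker, rose by 1.16 after tunicamycin over both genotypes (edgeR, adjusted p = 0.0190). In that comparison 4 of the 10 hepatocyte markers had positive and 6 negative log2 differences, with a median of -0.04. For LKO against WT, 3 were positive and 7 negative over both treatments, and 2 positive and 8 negative after tunicamycin alone. After tunicamycin over both genotypes, 2 of 3 genes tested in the lymphocyte and neutrophil list were called, where 4.32% of all genes were. These were the neutrophil genes S100a8 and S100a9, which rose by 2.51 and 2.34 (edgeR, adjusted p = 0.0273 and 0.0257). The values were low: the whole list summed to 3.97 to 5.87 CPM in WT vehicle and 4.32 to 13.2 in WT tunicamycin, which overlapped. In LKO it summed to 6.53 to 7.52 CPM with vehicle and 8.39 to 11.7 after tunicamycin. Of 10 Kupffer cell markers 0 were called by edgeR in any comparison, but all 10 had positive log2 differences after tunicamycin, with a median of 0.24 in WT and 0.55 in LKO, and in LKO against WT after tunicamycin, with a median of 0.25. They summed to 54.3 to 65.9 CPM in WT vehicle, 62.5 to 81.2 in WT tunicamycin, 42.7 to 69.6 in LKO vehicle and 67.3 to 129 in LKO tunicamycin. Of 10 endothelial markers 0 were called, with 5 positive and 5 negative values after tunicamycin in each genotype. In no list was a marker at 0 in every sample. The part of cell makeup in the values of the 10 genes was not tested.

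The gene most like each of the 10 over the 13 samples was found by the Pearson correlation of log2 CPM among 3300 genes with a mean of at least 10 CPM. It was Ptbp3 for Kmt2a (r = 0.769), Vegfa for Kmt2b (0.855), Tsc2 for Kmt2c (0.892), Ubr1 for Kmt2d (0.856) and Selo for Setd1a (0.838). It was Osbpl8 for Setd1b (0.824), Tst for Men1 (0.791), Akr7a5 for Kdm6a (0.816), Nmt1 for Cxxc1 (0.848) and Dad1 for Wdr82 (0.852). In no case was the closest gene another of the 10, but only Kmt2a, Kmt2c, Kmt2d and Setd1b reached that mean and could be chosen. Among the 45 pairs of the 10 genes, r was highest for Setd1b and Kdm6a, at 0.782. These are the highest of many values over samples that share libraries and scaling, and they are given as a description.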

How the data were processed

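RNA from mouse liver was measured in 14 libraries, as polyadenylated RNA per the labels. Even so, 72.5 to 75.5% of sense-strand reads on genes came from the ribosomal RNA gene Rn45s, and the reason was not tested. The deposited counts are whole reads per gene in the layout that STAR writes, per the file headers, with multimapping reads listed apart from the genes. The deposited FPKM table has the column names of Cufflinks output, per the file headers. The submitters' processing notes name Trimmomatic, STAR, Cufflinks and mm10, with versions not given in the sources used here. The sense-strand column held 99.5 to 99.6% of stranded reads and was used. Reads carry no molecular identifiers, so counting error understates the uncertainty.

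LKO vehicle libraries 3 and 4 were summed, which left 13 samples. Counts were fitted in edgeR 4.0.16 (R 4.3.3) with TMM scaling, the filterByExpr filter by group, 1 mean per group and 9 residual degrees of freedom, and were tested by the quasi-likelihood test. Tests covered 9644 genes, adjusted by Benjamini-Hochberg and called under 0.05. The 7 contrasts were tunicamycin in each genotype, LKO against WT in each treatment, their interaction, and both averages. SE and 95% intervals were derived from the F value, or from p where the test's Poisson bound made p larger. Shares within enzyme pairs were compared by exact permutation within strata (scipy 1.17.1). Named genes were the 10 genes, Rbbp5, each called gene of the related and marker lists, the gene with the largest change per related list in the contrast with the smallest p among the 10 genes, and the most similar gene for each of the 10. Uty was named after its values were seen. The members and lists were chosen with earlier results of these data known. Alternatives used DESeq2 1.42.0, limma 3.58.1 on log2 FPKM with pseudocounts of 1 and 0.1, other scalings and filters, a replicate block, and fits without single samples. Leaving out LKO vehicle 1 and WT tunicamycin 3 together was chosen after seeing the data. The edgeR script was checked on simulated data. Figures were drawn with matplotlib 3.10.9 in Python 3.11.15.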

Additional observations from a re-analysis of the deposited data

How the results depend on the processing

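Under 24 alternatives, 1624 fold changes of the 10 genes were recomputed, of which 13, all with DESeq2, had no adjusted p. Of the other 1611, 1483 kept their sign and their side of the threshold, 126 changed sign and 2 passed only in the alternative. Signs changed in 34 of 70 pairs of a gene and a comparison, of which the largest reported log2 difference was 0.23 in size. The 2 passing values were Setd1b and Kdm6a in the genotype comparison without WT tunicamycin 2, so that the number of genes called there ran from 0 to 2 when single samples were left out. The cause of these changes was not tested. The signs of Setd1b and Kdm6a for genotype over both treatments and with vehicle, and of Kmt2c for tunicamycin in WT and over both genotypes, were the same in 23 of 23 alternatives. The stricter FPKM filter gave no value for most of the 10 genes. Without LKO vehicle 1 and WT tunicamycin 3 together, Kdm6a was -0.31 (adjusted p = 0.279, edgeR) and Setd1b -0.20 (0.544) over both treatments, and Kmt2c -0.19 (0.202) over both genotypes. Depth limited Men1, with 13 to 54 reads, most.

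With total count scaling, the values of opposite sign were Kdm6a -0.18 and Wdr82 -0.10 for tunicamycin in WT, Kmt2a -0.00370 and Setd1b -0.00356 for tunicamycin in LKO, Setd1a 0.0704 and Setd1b 0.0581 for genotype after tunicamycin, Setd1a 0.14 for the interaction, Setd1a 0.00176 for genotype over both treatments, Men1 -0.0838 and Kdm6a -0.0732 for tunicamycin over both genotypes. With the DESeq2 Wald test, the values of opposite sign were Kdm6a -0.000481 for tunicamycin in WT, Setd1a 0.00393 for the interaction. With no filter on low counts, the values of opposite sign were Kdm6a -0.0138 for tunicamycin in WT, Kmt2d -0.00254 for genotype with vehicle, Setd1a 0.00180 for the interaction, Kmt2b -0.00300 for genotype over both treatments. With Rn45s left out, the values of opposite sign were Kdm6a -0.00179 for tunicamycin in WT, Setd1a 0.00483 for the interaction. With limma on log2(FPKM + 1) without a filter, the values of opposite sign were Kdm6a -0.0854 for tunicamycin in WT, Kmt2a -0.00633 and Setd1b -0.0242 for tunicamycin in LKO, Kmt2c 0.00300, Setd1a 0.0443 and Wdr82 0.0374 for genotype with vehicle, Setd1a 0.0661 and Setd1b 0.0180 for genotype after tunicamycin, Setd1a 0.0218 for the interaction, Setd1a 0.0552 for genotype over both treatments, Men1 -0.0127 and Kdm6a -0.0336 for tunicamycin over both genotypes. With limma on log2(FPKM + 0.1), the values of opposite sign were Kdm6a -0.21 for tunicamycin in WT, Kmt2a -0.0232 and Setd1b -0.0578 for tunicamycin in LKO, Kmt2c 0.00641, Setd1a 0.12 and Wdr82 0.0648 for genotype with vehicle, Setd1a 0.19 and Setd1b 0.0803 for genotype after tunicamycin, Setd1a 0.0744 and Cxxc1 0.00147 for the interaction, Setd1a 0.16 for genotype over both treatments, Men1 -0.0432 and Kdm6a -0.0893 for tunicamycin over both genotypes. With both LKO vehicle 1 and WT tunicamycin 3 left out, the values of opposite sign were Kdm6a -0.13 for tunicamycin in WT, Kmt2d -0.0763 and Wdr82 0.0940 for genotype with vehicle, Kmt2d -0.0406 for genotype after tunicamycin, Setd1a 0.18 for the interaction, Kmt2b -0.0692, Kmt2c -0.00300, Kmt2d -0.0584 and Men1 -0.0215 for genotype over both treatments. With the summed LKO vehicle sample (libraries 3 and 4) left out, the values of opposite sign were Kmt2b -0.0505, Kdm6a -0.0380 and Cxxc1 -0.0231 for tunicamycin in LKO, Kmt2a -0.0472 and Cxxc1 0.0307 for genotype with vehicle, Kdm6a -0.0436 for the interaction, Kmt2a 0.0255, Men1 -0.0409 and Kdm6a -0.0162 for tunicamycin over both genotypes. With limma on genes with FPKM of at least 1 in 3 samples, the values of opposite sign were Wdr82 0.0374 for genotype with vehicle. With DESeq2 size factors, the values of opposite sign were Setd1a 0.00371 for the interaction. With 14 libraries, the values of opposite sign were Setd1a 0.0108 for the interaction, Kmt2b -0.0140 for genotype over both treatments. With FPKM shares, the Setd1a share after tunicamycin differed by 0.823 percentage points, against -0.416 in reads, and without the summed LKO vehicle sample the Kmt2a share differed between genotypes by -0.41.

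Single samples left out gave the following log2 ranges. For tunicamycin in WT, Kmt2a from -0.18 to 0.0175 and Kdm6a from -0.13 to 0.21. For tunicamycin in LKO, Kmt2a from -0.0770 to 0.12, Setd1b from -0.0261 to 0.0814 and Kdm6a from -0.0169 to 0.19. For genotype with vehicle, Kmt2a from -0.0726 to 0.12, Kmt2d from -0.0843 to 0.0747, Cxxc1 from -0.16 to 0.0764 and Wdr82 from -0.15 to 0.0869. For genotype after tunicamycin, Kmt2d from -0.0417 to 0.11, Setd1b from -0.32 to 0.13 and Wdr82 from -0.0301 to 0.10. For the interaction, Kmt2a from -0.0141 to 0.21, Kmt2d from -0.0488 to 0.15, Setd1a from -0.0619 to 0.12, Kdm6a from -0.13 to 0.21 and Wdr82 from -0.0284 to 0.20. For genotype over both treatments, Kmt2b from -0.0366 to 0.0471, Kmt2c from -0.0125 to 0.0623, Kmt2d from -0.0173 to 0.0625, Men1 from -0.0118 to 0.13 and Wdr82 from -0.0527 to 0.0727. For tunicamycin over both genotypes, Kmt2a from -0.0719 to 0.0296, Setd1b from -0.23 to 0.00635, Men1 from -0.0301 to 0.12 and Kdm6a from -0.0295 to 0.15. The shares in percentage points ran from -0.059 to 1.59 for Kmt2a and from -1.03 to 0.612 for Kmt2c between genotypes, and from -2.33 to 1.23 for Setd1a between treatments.

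Counts of called genes over all genes, in the order of tunicamycin in WT, tunicamycin in LKO, genotype with vehicle, genotype after tunicamycin, genotype over both treatments and tunicamycin over both genotypes, were 35, 3, 4, 83, 213 and 417. They were 148, 3, 8, 164, 261 and 810 with total count scaling, 154, 47, 20, 138, 260 and 484 with DESeq2, 289, 153, 84, 261, 514 and 764 without a filter, 56, 5, 12, 115, 236 and 668 with 14 libraries, and 608, 23, 20, 74, 109 and 1007 with both doubted samples left out. Limma on log2(FPKM + 1) gave 0, 1, 0, 7, 43 and 19, on log2(FPKM + 0.1) 0, 2, 2, 8, 74 and 34, and with the FPKM filter 2, 0, 0, 46, 73 and 446. Leaving out single samples gave 0 to 615, 0 to 67, 0 to 17, 0 to 183, 62 to 413 and 59 to 1085. The 413 came without WT tunicamycin 2, the sample whose absence brought the Setd1b and Kdm6a calls, and were 4.15% of 9951 genes tested. The 183 also came without this sample, the 615, 67, 17 and 1085 without WT tunicamycin 3, the lowest counts for genotype after tunicamycin and for tunicamycin over both genotypes without WT tunicamycin 1, and the 62 without WT vehicle 1. Total count scaling moved the median log2 difference of all genes to -0.18 for tunicamycin in WT, 0.14 for genotype after tunicamycin, 0.13 for the interaction and -0.11 for tunicamycin over both genotypes. Its calls split into 227 higher and 34 lower for genotype and 153 higher and 657 lower for tunicamycin, against 130 and 83, and 210 and 207, with TMM.

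The replicate numbers in the titles were tried as a block, although the labels do not say that they pair samples. Residuals of 18 same-numbered pairs across groups correlated from -0.118 to 0.141, and 4 of 12 samples correlated best with their own number. With the replicate block, 0 of the 10 genes were called in any comparison, Kdm6a for tunicamycin in WT was -0.00884 and Setd1a for the interaction 0.0391, and 38, 5, 0, 32, 167 and 467 genes were called over all genes, in the order above.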
